A study of Mus musculus with 9 samples.

Results

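The genes described here are 10 genes of the phospholipase A2 and prostaglandin pathway, out of 55487 genes in the count table: Pla2g5 and Pla2g4a, which encode phospholipases, Ptgs1 and Ptgs2, the cyclooxygenases, Ptges and Ptgis, which encode terminal synthases, the receptor genes Ptger1, Ptger4 and Ptgfr, and Hpgd, which encodes an inactivating enzyme. They were found by symbol, and each symbol matched 1 gene. The list was chosen by pathway with differences between the groups of this study already in view, among them the high level of Pla2g5 in knockdown cells. For these 10 genes the levels and fold changes are therefore given as a description, with no p and no verdict on a single gene; how many of them passed the threshold used for all genes is given once, beside the share of all genes. Of the 10 genes, 8 passed the filter on low counts; Ptgfr and Hpgd did not.

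In this pathway, phospholipases A2 cut arachidonic acid from membrane phospholipids. Cyclooxygenases turn it into an unstable intermediate, prostaglandin H2, from which separate synthases make prostaglandin E2, prostacyclin and the other prostanoids. These act on G protein-coupled receptors of nearby cells and are then taken up and inactivated. Endothelial cells are known as a main source of prostacyclin, which widens vessels and keeps platelets from clumping, and cyclooxygenase 2 is known as the inducible form of inflamed tissue.

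Poly-A RNA was sequenced from MCEC, an established line derived from mouse heart endothelium, in 3 groups of 3 libraries: wild-type cells (WT), cells with a knockdown of Zbtb46 (KD), a zinc finger transcription factor gene, and cells with enforced Zbtb46 overexpression (OE). The labels do not state how Zbtb46 was lowered or raised, whether each line is 1 clone, or whether replicates were separate cultures, so p-values measure only the spread between these libraries; no library with an empty vector was analysed here. Total counts ran from 39491828 to 55745849 per library. Levels are in CPM, counts scaled to the size of the library and a TMM factor, and are given as mean ± SD over 3 libraries. Ribosomal RNA genes took 7.44% to 17.3% of the counts in WT, 9.55% to 12.0% in KD and 14.4% to 18.2% in OE. Zbtb46 itself stood at 13.7 ± 0.623 CPM in WT, 11.2 ± 0.537 in KD and 191 ± 2.67 in OE. In KD it was thus only slightly lower than in WT, with a log2 fold change of -0.28 (SE 0.055), and the 3 KD libraries lay below the 3 WT libraries. The endothelial label was only partly borne out by 12 endothelial marker genes. Of these, 7 had at most 10 counts in every library, including Pecam1, Cdh5, Cldn5 and Erg, while Eng stood at 124.5 ± 6.78 CPM in WT. The summed level of the 12 genes, most of it Eng, was 129.5 to 142.6 CPM in WT, 112.9 to 117.9 in KD and 87.0 to 94.4 in OE. The 8 fibroblast and mural markers summed to 5113 to 5680 CPM in WT, 4851 to 4915 in KD and 4041 to 4134 in OE. Most of this sum was Col1a1, at 5259 ± 290 CPM in WT, and 2 of the 8 genes had at most 10 counts in every library. The part of these markers and of the ribosomal share in the differences below was not tested. In such bulk samples, fewer cells of a type and less RNA per cell cannot be told apart. The 6 macrophage markers summed to at most 5.58 CPM in any library and the 6 cardiomyocyte markers to at most 2.75.

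The 3 members with every KD library above and every OE library below the WT libraries are Pla2g5, Pla2g4a and Ptgs2. The share of all tested genes with this order was not computed, so nothing is read from the number of members that had it. The 250 bases before the annotated starts of these 3 genes are shown because they had that order of groups. The sequences are from RefSeq on GRCm38.p6, the build that the submitters' processing notes name as GRCm38. RefSeq windows were matched for 8 of the 10 genes; Ptgis and Ptger1 had none. The windows reach 250 bases before and 50 after an annotated start. In Pla2g5 (chr4:138863470-138863719, minus strand) the capitals mark a stretch of 17 bases that occurs 4 times. Searching the strand of each gene, it was found in 1 of 32851 RefSeq promoter windows, the one shown. The stretch was taken from that window, so this search cannot say how unusual such a repeat is. In Pla2g4a (chr1:149961291-149961540, minus strand) and Ptgs2 (chr1:150099781-150100030, plus strand) capitals mark matches to any of the motifs TATAAA (the core promoter box of many genes), TGACGT (the core of a cyclic AMP response element), CACGTG (E-box) and GGGCGG (GC box), searched on both strands.
Pla2g5: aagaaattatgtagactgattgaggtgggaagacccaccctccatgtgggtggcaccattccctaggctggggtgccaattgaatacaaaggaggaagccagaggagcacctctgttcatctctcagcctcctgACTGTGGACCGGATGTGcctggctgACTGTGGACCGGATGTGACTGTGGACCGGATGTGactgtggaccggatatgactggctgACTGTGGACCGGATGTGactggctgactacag
Pla2g4a: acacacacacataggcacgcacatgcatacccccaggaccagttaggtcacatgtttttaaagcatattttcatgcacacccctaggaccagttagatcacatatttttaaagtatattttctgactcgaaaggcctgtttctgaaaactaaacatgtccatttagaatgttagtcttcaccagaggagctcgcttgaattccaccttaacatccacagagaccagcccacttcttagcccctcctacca
Ptgs2: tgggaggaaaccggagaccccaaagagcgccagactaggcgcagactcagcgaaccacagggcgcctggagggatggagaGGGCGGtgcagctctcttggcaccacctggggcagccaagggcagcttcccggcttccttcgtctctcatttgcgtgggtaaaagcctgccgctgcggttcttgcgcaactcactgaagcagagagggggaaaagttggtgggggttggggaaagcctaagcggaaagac
Ptgs2, bases 3 to 28 after its start: agtcaccactACGTCACGTGgagtcc

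The Ptgs2 window alone among those of the 3 genes held a GC box, the cyclic AMP element core and an E-box; the last pair overlap, at bases 13 and 17 after the annotated start (chr1:150100033-150100058 is the short stretch). Over all windows the shares with a match were 13.6% for TATAAA, 7.51% for TGACGT, 7.15% for CACGTG and 35.7% for GGGCGG. Among the other members with a window, those of Ptger4, Ptges, Ptgfr and Hpgd also held a GC box, and that of Hpgd a match to TATAAA. Neither the window of Pla2g4a shown here nor those of Pla2g5 held any of the 4 motifs. Pla2g5 and Pla2g4a each have a further annotated start downstream, where the window of Pla2g4a holds a match to TATAAA on the other strand, and counts per gene do not show which start the RNA came from.

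Across the pathway, cyclooxygenase 1 was by far the most abundant member and the receptor genes had few counts or none. Per kilobase of exon, in WT, Ptgs1 stood at 61.1 ± 0.514 CPM, Pla2g4a at 6.82 ± 0.696, Ptgs2 at 3.84 ± 0.458, Ptgis at 0.691 ± 0.142, Pla2g5 at 0.298 ± 0.0626, Ptger4 at 0.235 ± 0.0278, Ptger1 at 0.0760 ± 0.0197 and Ptges at 0.0538 ± 0.0464. In this order the neighbours Pla2g5 and Ptger4 lay within their spread of each other, as did Ptger1 and Ptges. In KD, Pla2g5 reached 2.91 ± 0.164 CPM per kilobase and came after Ptgs2, at 5.16 ± 0.530, as the fourth member.

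Beside each contrast stands the share of all 16955 tested genes that passed the same threshold, an adjusted p under 0.05 in edgeR's quasi-likelihood test over all genes. In KD against WT, 4 of the 8 tested members passed, 3 higher and 1 lower, against 21.3% of all genes tested (11.0% higher, 10.4% lower). In OE against WT, 4 passed, 1 higher and 3 lower, against 36.4% (17.0% higher, 19.5% lower). In OE against KD, 6 passed, 2 higher and 4 lower, against 41.5% (19.4% higher, 22.1% lower). Since the list was made with these differences known, nothing is read from the counts. With library totals in place of TMM, 35.8% of all calls in KD were higher in place of 51.4%, and 31.6% of those in OE in place of 46.6%; upper-quartile factors gave 57.6% in OE against KD in place of 46.8%. The 3 contrasts share libraries, so a gene that is high or low in 1 group enters 2 of them.

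**Figure D1:**
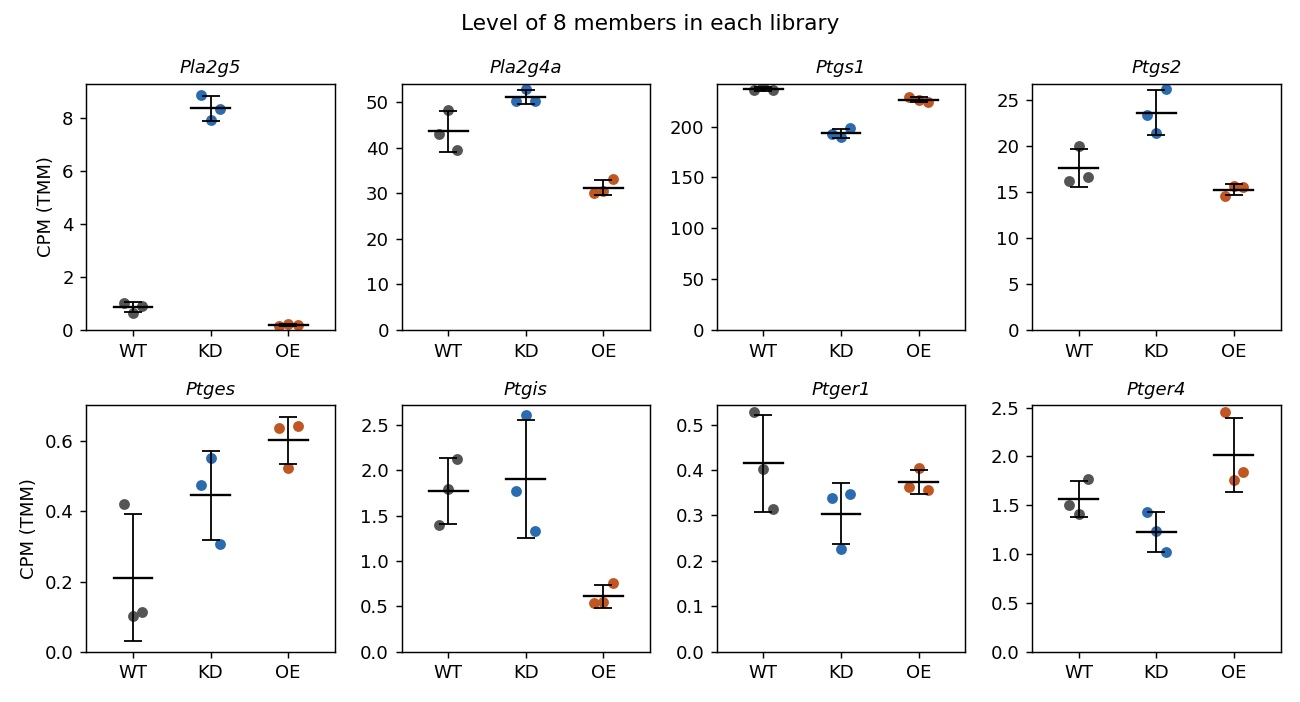
Level in CPM (vertical axis, from 0, TMM-scaled) of the 8 tested members in each of the 9 libraries, by group; dots are libraries, horizontal lines means and bars SDs of 3 libraries. Pla2g5 stands at 7.94 to 8.88 CPM in KD and at 1.002 or less in every other library; Ptgs1 is lowest in KD, and Ptgis is lowest in OE.

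Pla2g5 (ENSMUSG00000041193, minus strand, chr4:138799244-138863482) encodes group V phospholipase A2, a small secreted enzyme. Its level in the WT libraries was 1.002, 0.655 and 0.917 CPM, or 38, 39 and 41 counts. The KD libraries had 8.88, 7.94 and 8.36 CPM, from 316 to 447 counts, and the OE libraries 0.149, 0.222 and 0.178 CPM, from 7 to 11 counts. The 3 groups did not overlap: OE was lowest, WT intermediate and KD highest. Against WT, Pla2g5 was 9.94-fold higher in KD (log2 fold change 3.31, SE 0.18) and 4.53-fold lower in OE (log2 fold change -2.18, SE 0.22). Between KD and OE the levels differed 45.1-fold. Over the alternatives run, the difference ran from 3.13 to 3.49 in KD and from -2.49 to -2.05 in OE on the log2 scale. The gene encloses Pla2g2a, which had at most 2 counts in a library.

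Pla2g4a (ENSMUSG00000056220, minus strand, chr1:149829618-149961290) encodes cytosolic phospholipase A2 alpha, which calcium brings to membranes and which prefers arachidonic acid. The WT libraries had 43.1, 48.3 and 39.5 CPM, the KD libraries 50.3, 52.9 and 50.2 CPM, and the OE libraries 30.1, 30.4 and 33.2 CPM. The groups followed the same order as for Pla2g5 and did not overlap, but WT replicate 2 came close to KD. The difference was small in KD, 1.17-fold (log2 fold change 0.23, SE 0.088), and 1.40-fold downward in OE (log2 fold change -0.48, SE 0.096). Over the alternatives run, the log2 difference of Pla2g4a ran from 0.16 to 0.31 in KD and from -0.56 to -0.41 in OE.

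The secreted and the cytosolic enzyme thus stood in a different proportion in each group. Per kilobase of exon, the level of Pla2g5 was 5.16%, 3.01% and 5.15% of that of Pla2g4a in the WT libraries. It was 39.2%, 33.3% and 36.9% in KD and 1.10%, 1.619% and 1.19% in OE. The ratio within a library does not depend on how libraries are scaled, and the 3 groups did not overlap.

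None of the tested genes around Pla2g5 passed both upward in KD and downward in OE. Over all genes tested, 11.0% passed upward and 10.4% downward in KD against WT, and 17.0% and 19.5% in OE against WT. Of the 25 other protein-coding genes tested within 1 Mb of Pla2g5, 1 was higher and 9 were lower in KD by the same threshold. Their median log2 fold change was -0.13. In OE against WT, 17 were higher and 0 were lower, with a median of 0.37, while Pla2g5 was lower. The nearest of these genes on each side were Otud3, 31.9 kb away, with log2 fold changes of -0.015 (SE 0.067) in KD and 0.37 (SE 0.051) in OE, and Camk2n1, 339 kb away on the other side, with 0.12 (SE 0.082) and 0.15 (SE 0.067). Otud3 passed in OE (adjusted p 0.00102 by edgeR), and the other 3 differences did not pass. Named after their values were seen, Eif4g3, Fam43b and Cda were lower in KD, with log2 fold changes of -6.26, -4.11 and -2.82. Nbl1 was the 1 gene that was higher in KD (0.35). In OE, the values of Eif4g3, Fam43b, Cda and Nbl1 were 1.62, 2.35, 0.65 and 0.34, and of these only that of Cda did not pass. In WT, Eif4g3, Fam43b and Cda had means of 16.8, 0.163 and 0.778 CPM, so the values of Fam43b and Cda rest on few counts. Within 10 Mb of Pla2g5, the 285 tested genes had a median of -0.17 in KD and 0.31 in OE. With these medians taken off, the log2 difference of Pla2g5 was 3.49 in KD and -2.49 in OE. The other secreted phospholipase genes of the same stretch, Pla2g2a, Pla2g2c, Pla2g2d, Pla2g2e and Pla2g2f, had at most 4 counts in any library.

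**Figure D2:**
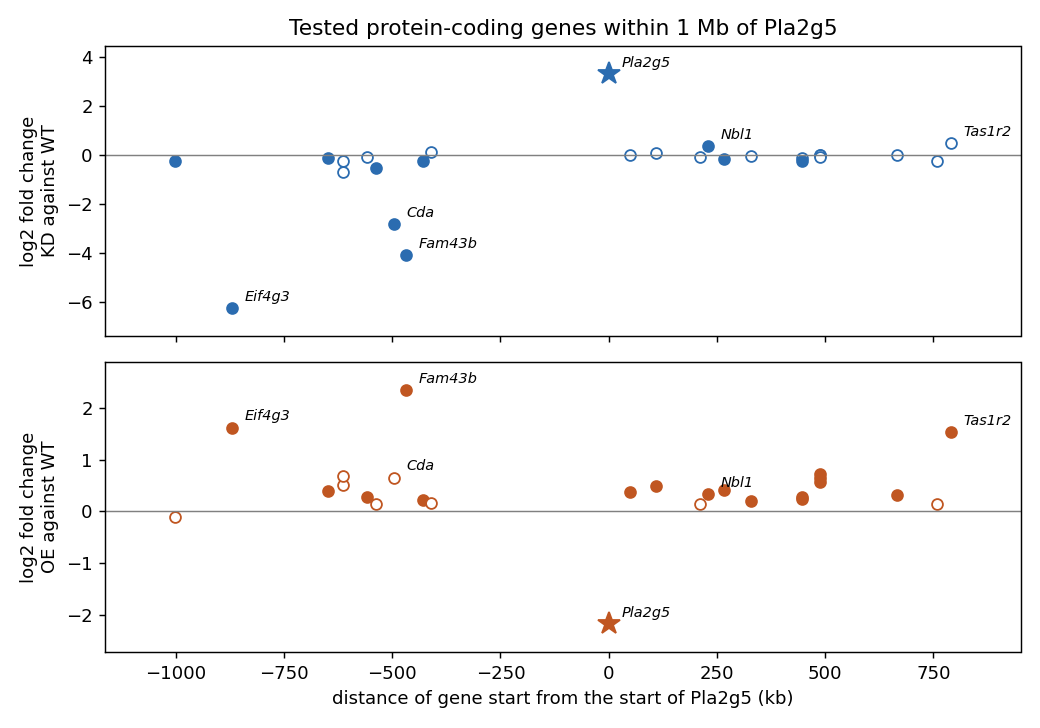
Log2 fold change (vertical axis) in KD against WT (upper panel) and OE against WT (lower panel) of Pla2g5 and the 25 other tested protein-coding genes within 1 Mb of it, by distance of their start from that of Pla2g5 in kb (horizontal axis). Filled circles passed an adjusted p under 0.05 and open circles did not. The star is Pla2g5, at 3.31 in KD and -2.18 in OE, and no verdict is read from its fill.

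Among 11533 expressed genes with regular symbols, Sytl4 and Adcy8 were among the 3 whose profile over the 9 libraries lay closest to that of Pla2g5. The measure was the root mean square difference of log2 CPM with each gene centred on its own mean. It came to 0.716 for Sytl4 and 0.867 for Adcy8, where the profile of Pla2g5 itself spanned 5.54. Sytl4, whose product takes part in granule docking, stood at 0.925 ± 0.262 CPM in WT, 4.32 ± 0.472 in KD and 0.0869 ± 0.0787 in OE. Adcy8, an adenylyl cyclase gene, stood at 1.33 ± 0.222, 3.68 ± 0.665 and 0.269 ± 0.123 CPM. These genes were picked for this likeness, which is a description.

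Ptgs1 (ENSMUSG00000047250, plus strand, chr2:36230426-36252272) encodes cyclooxygenase 1, the form known to be made constantly by many cells. Its level was 236.4, 239.6 and 236.0 CPM in WT, 193.0, 189.2 and 198.1 CPM in KD, and 229.0, 226.0 and 224.4 CPM in OE. KD was the low group, and the 3 groups did not overlap although WT and OE lay close together. The log2 fold change was -0.29 (SE 0.020) in KD, a level 18.5% lower, and -0.068 (SE 0.011) in OE, a level 4.59% lower.

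Ptgs2 (ENSMUSG00000032487, plus strand, chr1:150100031-150108227) is the gene of inducible cyclooxygenase 2. The WT libraries had 16.2, 20.0 and 16.6 CPM. The KD libraries had 23.3, 21.4 and 26.2 CPM and the OE libraries 14.6, 15.6 and 15.5 CPM. KD was highest and OE lowest, without overlap, and WT replicate 2 was the WT library nearest to KD. In KD the level was 1.34-fold that of WT (log2 fold change 0.42, SE 0.13). In OE it was -0.21 (SE 0.10), and from -0.28 to -0.11 over the alternatives run. Between OE and KD the log2 fold change was -0.63 (SE 0.091).

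The cyclooxygenases thus differed from WT in opposite directions in KD. Per kilobase of exon, the level of Ptgs1 was 17.2, 14.1 and 16.8 times that of Ptgs2 in the WT libraries. It was 9.76, 10.4 and 8.92 times in KD, below every WT and OE library. In OE it was 18.5, 17.03 and 17.05 times, and the OE and WT ranges overlapped. Ptgs2 and Pla2g4a are neighbours on chromosome 1, 139 kb apart, with no protein-coding gene annotated between them. The antisense transcript Ptgs2os, which starts 0.068 kb from the start of Ptgs2, stood at 0.733 ± 0.267 CPM in WT, 1.14 ± 0.256 in KD and 0.748 ± 0.175 in OE, and neither difference from WT passed. The 73 tested genes within 10 Mb of Pla2g4a had medians of 0.069 in KD and 0.033 in OE on the log2 scale.

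**Figure D3:**
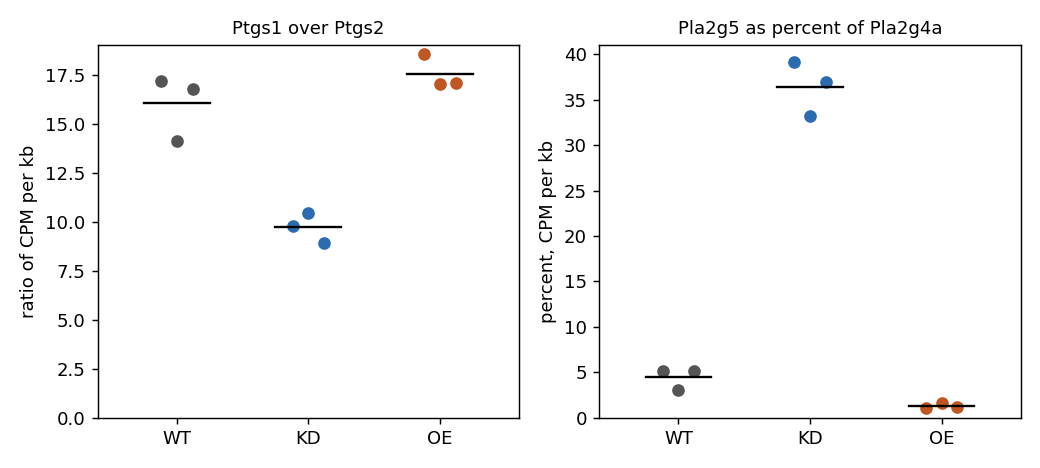
Ratio of Ptgs1 to Ptgs2 (left) and Pla2g5 as a percent of Pla2g4a (right), both from CPM per kilobase of exon, in each library (dots) with group means (lines); the vertical axes start at 0. The cyclooxygenase ratio is 8.92 to 10.4 in KD and 14.1 to 18.5 elsewhere, and the phospholipase ratio is 33.3% to 39.2% in KD and at most 5.16% elsewhere.

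Ptges (ENSMUSG00000050737, minus strand, chr2:30889471-30929863) encodes microsomal prostaglandin E synthase 1, the inducible enzyme of prostaglandin E2. It had few counts in any group and entered the fit through KD and OE, since only 1 WT library had over 6 counts. The WT libraries had 16, 6 and 5 counts, or 0.422, 0.101 and 0.112 CPM. KD had 24, 22 and 15 counts (0.477, 0.553 and 0.307 CPM) and OE 30, 26 and 29 counts (0.639, 0.525 and 0.645 CPM). OE lay above all WT libraries, while KD overlapped WT through WT replicate 1. The log2 fold change was 1.14 (SE 0.59) in KD and 1.58 (SE 0.56) in OE. Without WT replicate 1 the values were 2.04 and 2.48. Without WT replicate 2 the OE value was 1.20.

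Ptgis (ENSMUSG00000017969, minus strand, chr2:167191805-167240604) encodes prostacyclin synthase. Its level was 1.40, 1.80 and 2.13 CPM in WT, 1.77, 2.61 and 1.33 CPM in KD, and 0.533, 0.545 and 0.756 CPM in OE. OE was low, without overlap, while KD and WT overlapped. In OE the level was 2.91-fold lower than in WT (log2 fold change -1.54, SE 0.23) and 3.09-fold lower than in KD. In KD the log2 fold change was 0.087 (SE 0.32). Per kilobase of exon, Ptgis stood at 5.07, 27.3 and 29.1 times Ptges in the WT libraries, 5.68, 7.24 and 6.64 times in KD and 1.28, 1.59 and 1.80 times in OE. This ratio of sparse counts was lower in each OE library than in any other library, and WT replicate 1 lay below the KD libraries and the other WT libraries above them.

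The nearest tested protein-coding genes on each side of Ptgis were B4galt5, 57.8 kb away, and Znfx1, 129 kb away. Both were modestly lower in OE, with log2 fold changes of -0.37 (SE 0.048) and -0.22 (SE 0.057), and passed (adjusted p 5.69e-06 and 0.00256 by edgeR). The 142 tested genes within 10 Mb had a median of -0.029. The profiles nearest to that of Ptgis, by the measure used above, were those of Peg10 (0.236), Csgalnact1 (0.237) and Ptprd (0.251). Peg10, an imprinted gene, went from 127.5 ± 9.20 CPM in WT and 127.3 ± 6.53 in KD to 43.4 ± 3.15 in OE.

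Of the 3 receptor genes, Ptger4 was the most abundant. It encodes the EP4 receptor of prostaglandin E2, which raises cyclic AMP, at chr15:5206661-5244187 on the minus strand. Ptger4 had 57, 84 and 79 counts in WT, or 1.503, 1.41 and 1.77 CPM. KD had 1.43, 1.23 and 1.02 CPM and OE 2.45, 1.76 and 1.84 CPM. WT overlapped both other groups, while OE and KD did not overlap each other. The log2 fold change was -0.34 (SE 0.16) in KD and 0.37 (SE 0.17) in OE, and 0.71 (SE 0.20) in OE against KD. Without OE replicate 1 the last value was 0.55. Ptger4 overlaps Ttc33 on the other strand, a gene with 493 to 876 counts, and the use of strand in counting is not given in the sources used here, so reads of the pair cannot be told apart.

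Ptger1, the gene of the calcium-raising EP1 receptor, lies at chr8:83666678-83672753 on the plus strand. It had 20, 24 and 14 counts in WT, 17, 9 and 17 in KD and 17, 20 and 16 in OE. With so few counts and the use of strand in counting not given, its level is uncertain. The log2 fold changes were -0.42 (SE 0.26) in KD and -0.14 (SE 0.20) in OE, and the latter changed sign without WT replicate 1 (0.053). Ptgfr, the gene of the prostaglandin F receptor on chromosome 3, had 0 counts in 8 libraries and 2 in OE replicate 3. Hpgd encodes 15-hydroxyprostaglandin dehydrogenase, which inactivates prostaglandins, and lies on chromosome 8. It had 2 counts in KD replicate 1 and 0 elsewhere. A count of 0 allows up to 3 counts, or 0.0504 to 0.0791 CPM depending on the library, from counting error alone. No fold is given for Ptgfr or Hpgd.

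**Figure D4:**
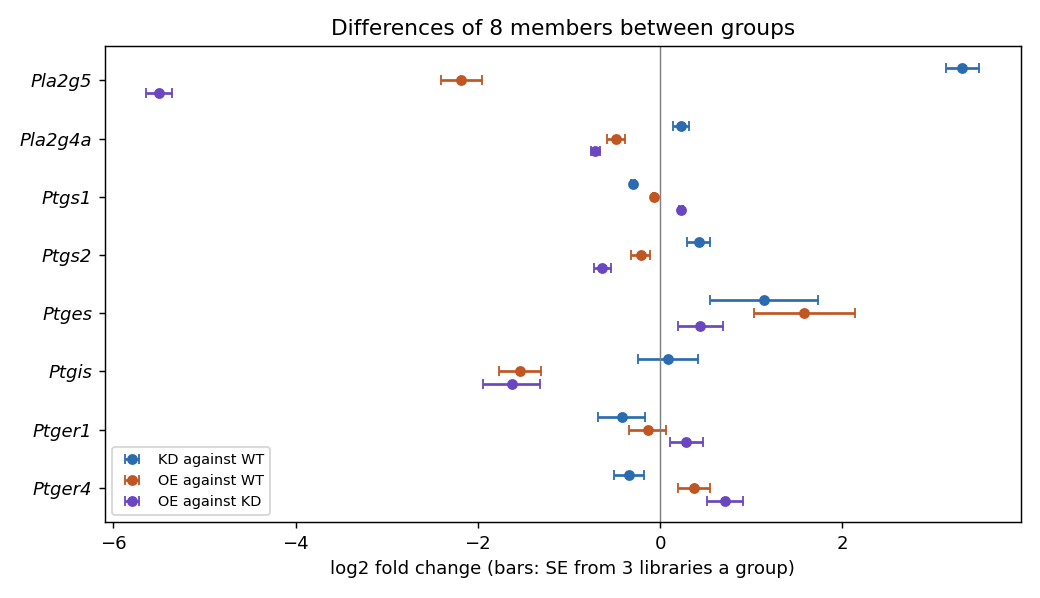
Log2 fold change (horizontal axis) of the 8 tested members in KD against WT, OE against WT and OE against KD; bars are SEs from the spread of 3 libraries a group. Pla2g5 spans -5.49 to 3.31, while the 3 values of Ptgs1 lie between -0.29 and 0.23.

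The rest of the pathway was read from 6 lists with 68 further genes, of which 43 were tested and 20 had at most 10 counts in every library. In KD against WT, 5 of the 43 passed upward and 7 downward, and 31 did not pass; the median log2 fold change was 0.025, against -0.0022 over all genes tested. In OE against WT, 7 were higher, 15 lower and 21 did not pass, with a median of -0.091 against 0.0020. In OE against KD, 11 were higher and 12 lower, with a median of -0.11 against 0.011. The shares that passed, 12, 22 and 23 of 43, stand beside the backgrounds of 21.3%, 36.4% and 41.5% given above.

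Among 25 other genes of phospholipases and arachidonate release, 13 were tested; 2 were higher and 2 lower in KD (median log2 fold change 0.11), and 3 higher and 2 lower in OE (median -0.035). Pla2g7, which encodes the secreted enzyme that breaks down platelet-activating factor, fell in KD and rose in OE. It had 9.39, 9.06 and 8.19 CPM in WT, 5.17, 4.90 and 6.70 in KD, and 16.5, 16.8 and 16.4 in OE. The log2 fold change was -0.66 (SE 0.15) in KD and 0.90 (SE 0.059) in OE (edgeR, adjusted p 0.00019 and 7.34e-07). Its order of groups was the opposite of that of Pla2g5. Mgll, the gene of monoacylglycerol lipase, which frees arachidonic acid from an endocannabinoid, rose in KD and fell in OE. It had 38.1, 33.4 and 32.8 CPM in WT, 46.4, 44.4 and 45.7 in KD, and 15.5, 15.2 and 16.8 in OE. The log2 fold change was 0.39 (SE 0.072) in KD and -1.13 (SE 0.083) in OE (edgeR, adjusted p 0.000166 and 4.37e-11). Of the diacylglycerol lipases, Dagla fell in KD (log2 fold change -0.27, SE 0.078) and Daglb rose in OE (0.40, SE 0.053), with adjusted p by edgeR of 0.00587 and 1.6e-05. Pla2g12a, named after its values were seen, was the other gene of this list that rose in OE (0.32, SE 0.047). Anxa1, which encodes an annexin known to restrain phospholipase A2 and is named after its values were seen, rose in KD (0.26, SE 0.095) and fell in OE (-0.24, SE 0.090). The widely expressed phospholipase gene Pla2g6 stood at 41.6 ± 1.49, 40.6 ± 0.740 and 39.0 ± 2.86 CPM in WT, KD and OE and did not pass.

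In prostanoid synthesis, 5 of 8 further genes were tested; 1 was higher and 1 lower in KD (median -0.077), and 1 higher and 2 lower in OE (median -0.16). Ptges3, the cytosolic prostaglandin E synthase and a co-chaperone, rose in OE from 175.5 ± 8.21 to 201.3 ± 6.24 CPM (log2 fold change 0.20, SE 0.047). Akr1b3, an aldose reductase with prostaglandin F synthase activity, fell in OE from 774.7 ± 26.1 to 684.5 ± 9.38 CPM (-0.18, SE 0.030). Cbr1, a carbonyl reductase of prostaglandins, fell in KD (-0.31, SE 0.085). By edgeR the adjusted p were 0.00164, 0.000722 and 0.00529. Ptges3 also passed in KD (0.13, SE 0.052), a call lost under 13 of the alternatives run without a minimum fold change. Ptgds, a prostaglandin D synthase gene named after its values were seen, was lower in OE (-1.64, SE 0.58), which no longer passed without WT replicate 1 (-1.06). Of 6 further receptor genes, 4 were tested and all had group means under 1 CPM; 1 was lower in KD (median -0.26) and 2 were lower in OE (median -0.49). Those 2 were Ptgdr2 and Ptgir, named here after their values were seen. Ptgdr2 was lower in OE (-2.54, SE 0.41), a call lost without WT replicate 1 (-2.26) or OE replicate 1 (-2.20). Ptgir, the prostacyclin receptor gene, had 0.844, 0.891 and 0.671 CPM in WT, 0.298, 0.327 and 0.471 in KD, and 0.341, 0.525 and 0.333 in OE. It was lower in both modified groups without overlap (log2 fold change -1.13, SE 0.22, in KD and -0.997, SE 0.23, in OE; edgeR, adjusted p 0.0346 and 0.0385). Both calls were lost with DESeq2 (adjusted p 0.0522 and 0.0723), with no filter beyond 1 count (by edgeR, 0.0650 and 0.0803), and without WT replicate 1 (log2 fold changes -1.09 and -0.96) or WT replicate 2 (-1.04 and -0.92). The KD call was also lost without KD replicate 1 (-0.99) or KD replicate 2 (-1.06), and the OE call without OE replicate 1 (-0.89) or OE replicate 3 (-0.88).

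All 6 further genes of transport and inactivation were tested, and 1 was higher in KD (median 0.027), while 1 was higher and 3 were lower in OE (median -0.17). Slco2a1 encodes the prostaglandin transporter that takes prostanoids into cells. It had 123.6, 124.2 and 140.6 CPM in WT, 156.2, 148.3 and 156.6 in KD, and 114.4, 111.0 and 108.2 in OE, with no overlap between groups. This was the order of Pla2g5, Pla2g4a and Ptgs2. Among the other pathway genes, Mgll, Anxa1, Lpcat1, Cysltr1 and Acsl5, the last named after its values were seen, had the same order without overlap. Pla2g7, Daglb and Acsl1, the last named after its values were seen, had the opposite order without overlap. Cysltr1, Acsl5, Daglb and Acsl1 did not pass in KD, and Acsl1 did not pass in OE. The share of all tested genes with either order was not computed, so nothing is read from these lists. The log2 fold change of Slco2a1 was 0.25 (SE 0.066) in KD and -0.22 (SE 0.065) in OE (edgeR, adjusted p 0.000967 and 0.00149). Cbr3, a carbonyl reductase gene, fell in OE from 5.06 ± 0.479 to 3.06 ± 0.470 CPM (-0.72, SE 0.15). Zadh2, of the same list, was lower in OE than in KD (-0.27, SE 0.054) and passed there, but not in KD or OE against WT. Abcc4, an exporter of prostanoids, and Ptgr1, a prostaglandin reductase gene, passed in OE with -0.20 (SE 0.088) and 0.17 (SE 0.051). They lost the call under 5 and 12 of the alternatives run without a minimum fold change. Of the 10 genes of arachidonate uptake and reacylation, all tested, 1 rose and 2 fell in KD (median 0.055), and 2 rose and 3 fell in OE (median 0.060). Acsl4, a ligase that activates arachidonic acid, rose in OE from 51.6 ± 8.55 to 80.3 ± 3.74 CPM (0.63, SE 0.14), and Lpcat1, a lysophospholipid acyltransferase gene, fell from 39.98 ± 1.76 to 26.9 ± 0.944 CPM (-0.57, SE 0.047). With the median of the genes within 10 Mb taken off, the change of Lpcat1 was -0.16. Lpcat3, an acyltransferase that puts arachidonic acid back into phospholipids, fell in KD from 79.6 ± 4.30 to 66.1 ± 1.40 CPM (-0.27, SE 0.048). Acsl3 rose in OE (0.47, SE 0.065), and Faah, a hydrolase gene of arachidonoyl amides, fell in KD (-0.59, SE 0.16), a call lost without WT replicate 2 or KD replicate 3.

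In the competing lipoxygenase branch, 5 of 13 genes were tested, with 0 higher and 1 lower in KD (median -0.30) and 0 higher and 3 lower in OE (median -1.22). Cysltr1, a receptor gene for cysteinyl leukotrienes, had 0.791, 0.823 and 0.604 CPM in WT and 0.973, 1.61 and 1.13 in KD. In OE it had 2, 10 and 2 counts, or 0.0426, 0.202 and 0.0445 CPM, a log2 fold change of -2.88 (SE 0.52) (edgeR, adjusted p 7.91e-05). Alox12b fell in OE from 1.29 ± 0.241 to 0.553 ± 0.132 CPM. Alox5ap, named after its values were seen, was lower in KD (-1.92, SE 0.32) and OE (-1.78, SE 0.46). The KD call was lost without KD replicate 3 (-1.65). Alox5ap had 31, 39 and 24 counts in WT, 10, 9 and 5 in KD and 10, 4 and 13 in OE, so these values rest on few counts. Alox5, the enzyme that starts leukotriene synthesis, had at most 12 counts in a library.

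**Figure D5:**
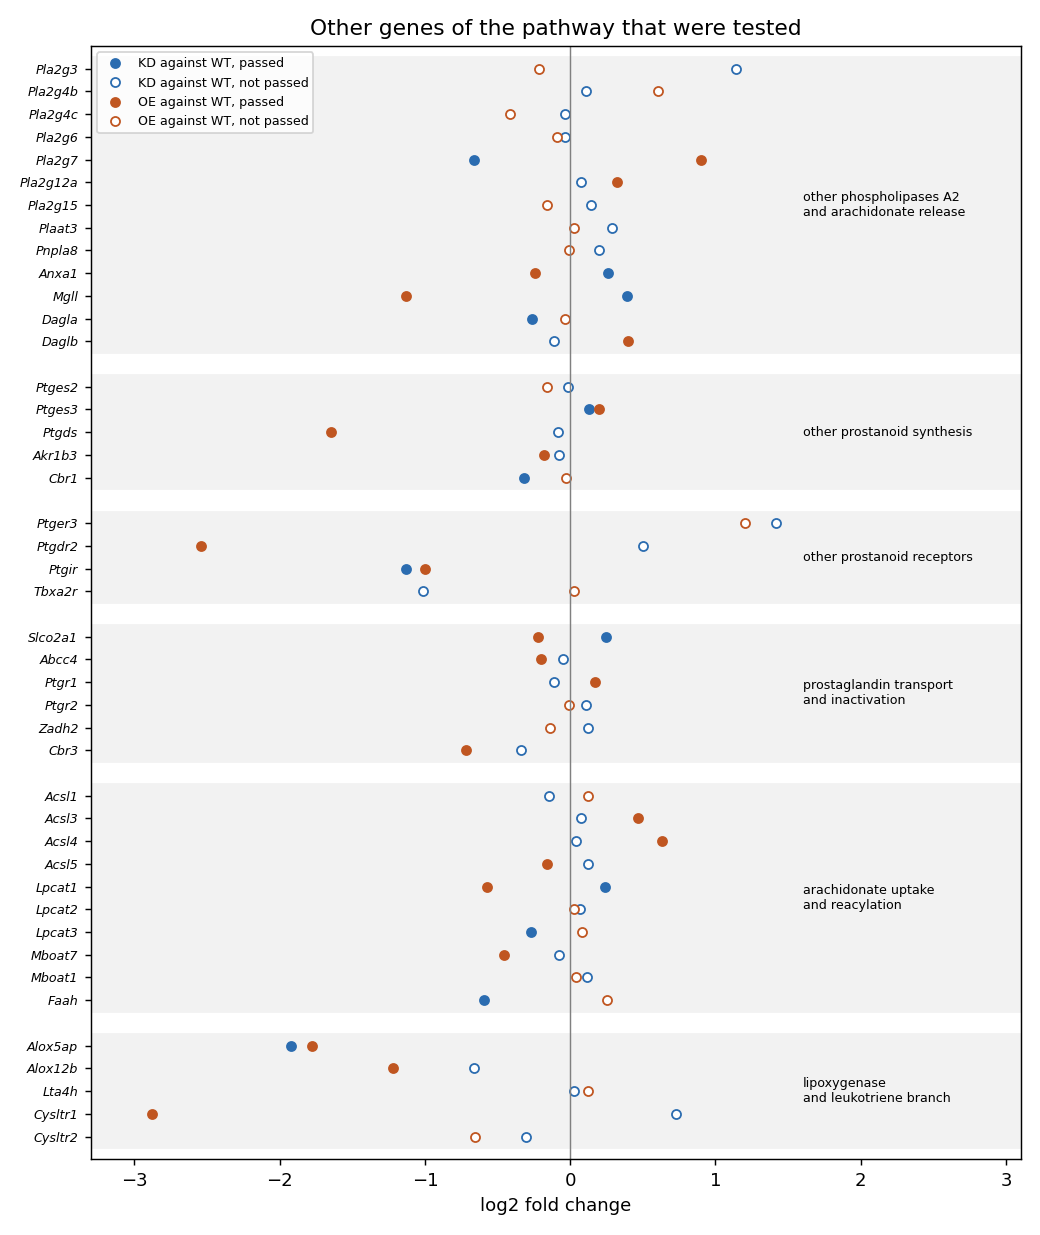
Log2 fold change (horizontal axis) in KD against WT and OE against WT of the 43 tested pathway genes outside the 10 members, grouped by list; filled dots passed an adjusted p under 0.05 and open dots did not. Mgll and Slco2a1 stand to the right in KD and to the left in OE, Pla2g7 the reverse, and Cysltr1 is farthest left, at -2.88 in OE.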

How the data were processed

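The authors deposited whole-number counts per Ensembl gene for 9 libraries, not normalised, judging from the values; the build is GRCm38 per the submitters' processing notes, and the aligner, counter and use of strand are not given in the sources used here. Repeated rows of 168 genes with identical counts were merged, which left 55487 genes. Genes were kept with filterByExpr (16955), scaled with TMM and fitted over all 9 libraries by group with edgeR 4.0.16 (robust quasi-likelihood), in R 4.3.3, with Benjamini-Hochberg adjustment over all genes. Each SE was computed from the 2 groups' SDs of log2 CPM with a prior count of 2. Exon lengths and positions are from GENCODE M21. The fit was tested on simulated data.

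The members and lists were chosen with earlier results of these data known. Named outside the members are, per list and comparison, up to 3 genes past the threshold with at least 1 CPM in a group and the largest fold change. For members with an absolute log2 fold change of at least 1 and at least 1 CPM in a group, the 3 most alike profiles and the nearest tested protein-coding gene on each side are named; 1 such profile is not reported here. Alternatives were DESeq2 1.42.0, limma-voom 3.58.1, other scalings and filters, a minimum fold of 1.5, 2 groups alone, a replicate block, each library left out, and local medians subtracted. Pla2g16 and Fam213b were matched by Ensembl identifier to Plaat3 and Prxl2b.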

Additional observations from a re-analysis of the deposited data

How the results depend on the processing

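Counts are given in the order KD to WT, OE to WT, OE to KD. When folds were tested against 1.5, there were 274, 794 and 1331 calls over all genes. Of the members, 1, 2 and 2 then passed, and of the other pathway genes 0, 3 and 5; the 0 is edgeR's, with 2 genes at an unadjusted p under 0.05, while DESeq2 and limma-voom without that minimum gave 11 each. With at least 10 counts in every library, 2 members passed in OE against WT, beside 5903 calls over all genes. Pla2g5, Ptges and Ptger1 were not tested in that setting. The other 161 of 171 counts under alternatives lay within 1.5 times the main count. With 1 library left out, calls over all genes ranged from 2537 to 4699, 5228 to 6440 and 6072 to 7604. The members that passed then ranged from 3 to 4, 3 to 5 and 5 to 6. The members behind an unchanged count were not always the same. The other pathway genes that passed ranged from 9 to 12, 18 to 23 and 20 to 27. Of 447 member values under alternatives, 436 moved by less than 1 SD between replicates and 3 had another sign. For the 19 other pathway genes named by the rule, 43 of 1080 values lost the call and 9 gained it. Most losses were of Ptges3 in KD, Ptgr1 and Abcc4 in OE and Akr1b3 in OE against KD. These values, and every tally of lost calls of a single gene, leave out the minimum fold of 1.5. Values with local medians subtracted have no p, so they could neither lose nor gain a call. Of the genes named after their values were seen, Ptgir lost 13 calls and Ptgdr2 3.

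Same-numbered libraries did not deviate together (correlations from -0.042 to 0.049, 3 of 9 best with their own number). With a replicate block, 3574, 6111 and 6969 genes, 4, 4 and 6 members and 10, 21 and 23 other pathway genes passed; Ptgir in KD then had an adjusted p of 0.0501 by edgeR. Values under 1 CPM are limited by counts: Ptges and Ptger1 in every group, Pla2g5 in WT and OE, and Ptgis in OE. The same holds for the means of Alox5ap, Ptgdr2, Ptgds and Ptgir in every group, Cysltr1 in WT and OE, and Alox12b in KD and OE.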
